A study of Bos taurus with 3 samples.

Results

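Within the mesenchymal stromal cell culture grown from bovine peripheral blood, some cells carried high RNA levels of the chemokines CXCL12 and CCL2, of INHBA and of CA4. These cells, called members here, were the 304 cells with the highest scores among 3033 stromal cells of the blood library, out of 18561 cells kept in the whole series. Blood barcodes were considered when they held at least 7489 unique molecular identifiers (UMIs, each standing for 1 captured RNA molecule) and when the 3 macrophage genes TYROBP, FCER1G and AIF1 made up less than 0.02% of those UMIs. Each of these cells was scored by the mean, over CA4, INHBA, CXCL12 and CCL2, of the natural log of 1 plus its UMIs per 10000, and the top 10% were taken as members. The remaining 2729 cells are called the other blood cells. The members were thus selected on the measured values of these 4 genes, and those levels, like all contrasts of members with the other blood cells, are given as a description. A group taken from the top of a per-cell score is a range of cells and not a cell type.

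The series holds single-cell RNA sequencing of primary mesenchymal stromal cells, the plastic-adherent fibroblast-like cells that grow out of many tissues. The cultures were started from fat, marrow and blood of 1 healthy Holstein-Frisian cow in its first lactation. All of them were wild type and untreated, and the medium was DMEM of low glucose content containing 30% fetal bovine serum until colonies were visible. Each tissue gave 1 library, so there is no replicate, and no test between conditions can be made. Intervals of ratios below are 95% intervals from the UMI counts and cover counting error only. Intervals of shares of cells are exact binomial 95% intervals over cells. They treat cells as independent, although cells of 1 library are no replicates.

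CXCL12 is the ligand of the receptor CXCR4 and retains blood-forming cells and lymphocytes near stromal cells, above all in bone marrow. CCL2 attracts monocytes through the receptor CCR2 and is among the genes switched on by NF-kB in stromal cells during inflammation. INHBA encodes the subunit whose dimer is activin A, a TGF-beta family ligand that follistatin (FST) binds and neutralises. CA4 is a carbonic anhydrase anchored to the outer face of the cell membrane, where it interconverts carbon dioxide and bicarbonate.

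The blood library held 98016815 UMIs in all, against 99356868 in adipose tissue and 106322567 in bone marrow, and 3192 blood cells were kept, of which 159 exceeded the macrophage limit. Pairs of libraries shared between 4 and 10 cell barcodes. Members were slightly shallower than the other blood cells, with a median of 22522 UMIs per cell against 25095, and held a median of 4477.5 detected genes against 4661. After each cell was thinned to 4000 UMIs, the medians were 1699.5 and 1679 genes. The median mitochondrial share of UMIs was 2.62% in members and 2.47% in the other cells.

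The scores formed 1 continuous distribution with a long upper tail. Its median was 0.487, the members began at 1.085, and the highest score was 2.715. The lowest member scored 1.085 and the highest cell left out 1.083. Within 0.1 of the limit lay 87 members above it and 92 other cells below it. In those cells just inside and just outside, INHBA read 363 and 298 CPM (UMIs per 1000000 UMIs of the group), CXCL12 270 and 263, CCL2 535 and 436, and CA4 79.4 and 69.7. The limit therefore parts cells of like levels.

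**Figure D1:**
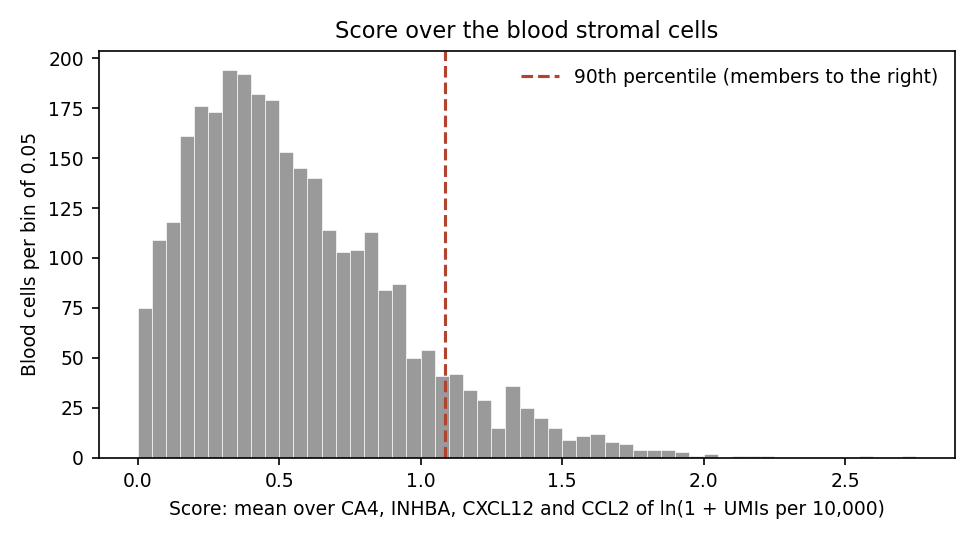
Number of blood stromal cells (y axis) by score (x axis, mean natural log of 1 plus UMIs per 10000 over the 4 genes) in bins of equal width. The dashed line marks the 90th percentile at 1.085; the distribution has no gap there.

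Of the 4 genes, CCL2 set the members furthest apart. CCL2 (ENSBTAG00000037811) read 966 CPM in members and 84.0 in the other blood cells. At least 1 CCL2 UMI was found in 97.7% of members and in 43.6% of the others. The middle member had 6.51 CCL2 UMIs per 10000, and the highest 151.6. CCL2 also read high outside the members: the 159 cells over the macrophage limit, whose median depth was 21625 UMIs, read 949 CPM, and free RNA in barcodes of 10 to 100 UMIs read 283 CPM. With every cell thinned to 4000 UMIs, CCL2 was detected in 81.9% of members, 18.4% of the other blood cells and 79.2% of the cells over the macrophage limit. Those cells also read 4422 CPM of the stromal collagen COL1A1, so they were not free of stromal RNA.

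INHBA (ENSBTAG00000048508) read 383 CPM in members and 119 in the other blood cells, with a UMI in 95.7% and 73.0% of cells. CXCL12 (ENSBTAG00000005077) was the most evenly spread of the 4, at 336 CPM against 146, with a UMI in 99.01% and 83.0% of cells. CA4 (ENSBTAG00000017969) read 189 CPM against 24.05 and was the least regular, with a UMI in 66.1% of members and 31.7% of the others. Thinned to 4000 UMIs, CA4 was detected in 28.9% of members and 7.40% of the other blood cells, while the cells over the macrophage limit stood at 6.29%. Free RNA read 34.6 CPM of CA4, 152 of CXCL12 and 283 of CCL2, at or above the levels of the other blood cells, and 53.8 of INHBA. The free RNA levels are shares within barcodes of only 10 to 100 UMIs. The part of such background in the counts of the other blood cells was not tested. All 4 genes were detected together in 183 members (60.2%) and in 293 other cells (10.7%). Members reached the score by different routes. By UMIs, CCL2 was the leading gene of 176 members (57.9%), INHBA of 70 (23.0%), CXCL12 of 37 and CA4 of 21.

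Each of the 4 genes was also read in cells ranked by the other 3. In the top 10% of blood cells ranked without CA4, CA4 read 122 CPM against 31.8 in the rest, a ratio of 3.86 (3.58 to 4.15). CCL2, ranked without itself, read 532 CPM against 131, a ratio of 4.08 (3.94 to 4.22). The same ratio was 2.02 for INHBA and 1.78 for CXCL12. Ranked in the same way in adipose tissue, CA4 gave a ratio of 1.00 (0.868 to 1.16), against 1.96 for INHBA, 1.28 for CXCL12 and 2.17 for CCL2. In bone marrow the CA4 ratio was 1.41 (1.24 to 1.59), and those of INHBA, CXCL12 and CCL2 were 1.69, 1.25 and 2.49. The interval for CA4 in adipose tissue included 1, and those in the other libraries did not, with counting error alone covered. The members were chosen with earlier results of these data known, so these ratios are a description.

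Members retained a stromal profile. Of 18 stromal marker genes, 15 reached 50 CPM in members or the other blood cells. The only marker at least 1.5-fold apart was COL1A1, the main chain of type I collagen, at 3923 CPM in members and 6202 in the others. At 10 CPM, 7 of 16 markers had a ratio above 1, with a median log2 ratio of -0.005. The 18 markers summed to 31642 CPM in members and 33599 in the others. Among the markers above 1, DCN, a small collagen-binding proteoglycan, read 731 and 544 CPM. The ectoenzyme NT5E (CD73) read 190 and 145, and the growth factor receptor PDGFRA 136 and 127. THY1, often used to define such cultures, was at only 2.38 and 4.52 CPM. COL1A1 was past 1.5-fold lower in 8 of 14 alternative settings.

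Most markers of other cell types were scarce. The 16 macrophage markers summed to 60.8 CPM in members and 68.9 in the other blood cells. Of this, LAPTM5, a lysosomal membrane protein of blood cells, gave 54.0 and 61.3. C1QB, C1QC, CD163, PTPRC, ITGAM and SPI1 had 0 UMIs in members, and TYROBP read 0.71 CPM against 422 in the cells over the macrophage limit. A UMI of TYROBP, FCER1G or AIF1 was found in 22 members (7.24%) and in 147 other cells (5.39%). Endothelial markers summed to 6.67 and 3.80 CPM with 7 of 13 at 0 in members, and 9 of 11 epithelial and mesothelial markers were at 0. Pericyte and mural markers summed to 238 CPM in members and 228 in the others, of which NDUFA4L2 gave 180 and 182 and CSPG4 52.9 and 41.8, while RGS5, KCNJ8, ANGPT1, DES and MYH11 were at 0 in members. Glial and neural markers summed to 74.3 and 115 CPM, of which NES, an intermediate filament gene, gave 54.9 and 86.5. Neutrophil markers summed to 25.7 CPM in members and 10.3 in the others. Within that list, S100A8, a calcium-binding protein of granulocytes, had 69 UMIs in 19 members, with 15 of them in 1 cell.

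Across the transcriptome, the largest ratios were those of IL6 and CXCL2, and the smallest those of ANKRD1, PTN and THBS1. Among 3002 genes with at least 50 CPM in members or the other cells, the 4 scored genes left out, 40 read at least 1.5-fold higher in members (1.33% of genes tested) and 65 at least 1.5-fold lower (2.17%). At 2-fold the counts were 10 (0.333%) and 14 (0.466%). The median log2 ratio over the 3002 genes was 0.04. Scaled by the trimmed mean of M-values (TMM) in place of total UMIs, the split was 31 higher and 87 lower.

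**Figure D2:**
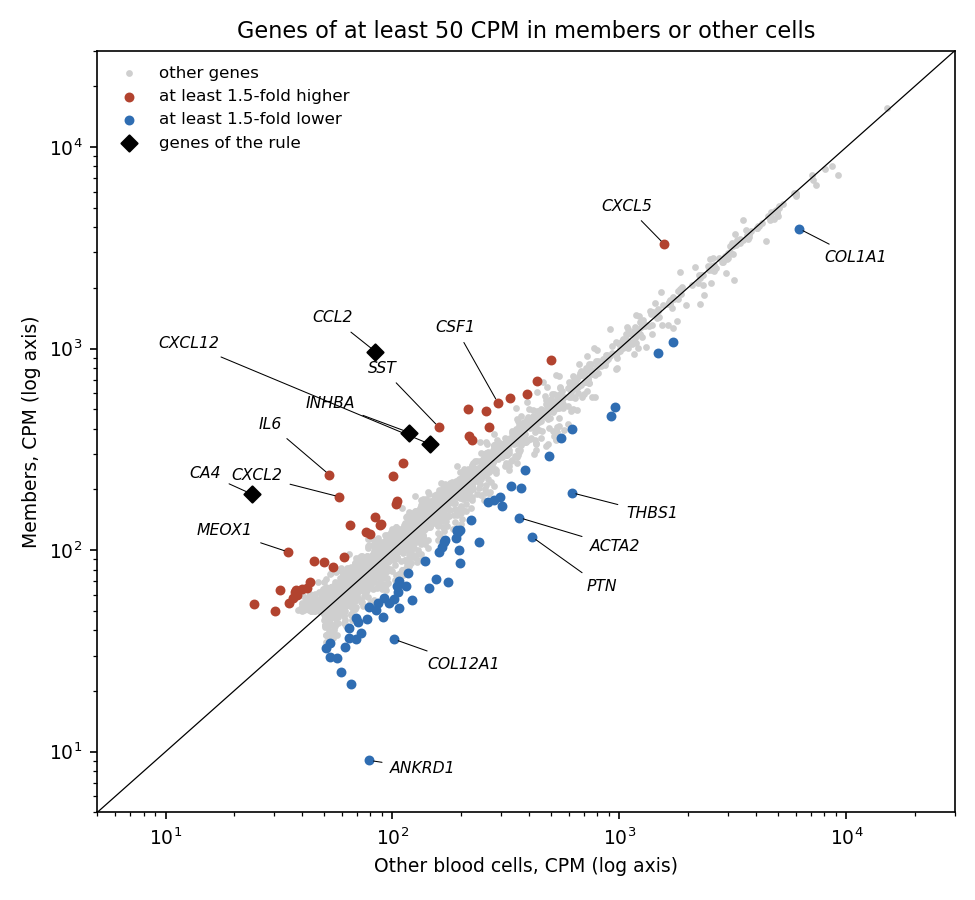
CPM of each gene of at least 50 CPM in members (y axis) against the other blood cells (x axis), both on log axes, with 1 point per gene. Red and blue points are at least 1.5-fold apart, black diamonds are the 4 genes of the score, and the diagonal marks equal levels. IL6 at 237 against 52.6 CPM lies far above the diagonal and ANKRD1 at 9.05 against 79.2 far below it.

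Inflammatory cytokines stood highest. IL6 (ENSBTAG00000014921), the cytokine that drives the acute phase response, read 237 CPM in members and 52.6 in the other blood cells, a ratio of 4.51 (4.27 to 4.76). Its log2 ratio was 2.17, 2.85 when only the top 5% were taken as members and 1.49 when CCL2 was left out of the score, so the choice of cells moved it more than counting error. CXCL2, a neutrophil-attracting chemokine, read 184 and 58.2 CPM, a ratio of 3.16 (2.98 to 3.35); on the log2 scale this was 1.66, against 2.34 for the top 5% and 0.77 among cells low in cell cycle genes. Its relatives GRO1 and CXCL5 read 272 against 111 CPM (2.44-fold) and 3305 against 1570 CPM (2.10-fold). CXCL8, another chemokine of this family, read 69.8 against 46.7 CPM, a ratio of 1.49 that fell short of 1.5. CXCL16 read 53.1 against 59.9 CPM. The sequences of GRO1, CXCL2, CXCL5 and CXCL8 are alike, and the sources used here do not say how reads shared between them were counted, so the division among them is uncertain.

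NFKBIA, the inhibitor that NF-kB itself induces, read 134 CPM in members against 65.0 (2.06-fold), and CSF1, the growth factor of macrophages, 540 against 291 (1.86-fold). Of the 24 inflammatory cytokines and NF-kB targets listed, 3 could be tested at 50 CPM, IL6, NFKBIA and CSF1, and all 3 were past 1.5-fold higher. At 10 CPM the list had 11 genes, all above a ratio of 1, with a median log2 ratio of 0.89 against 0.03 over all 7166 genes of that level. These included NFKBIZ at 49.3 against 23.0 CPM, TNFAIP3, an NF-kB feedback inhibitor, at 10.4 against 4.74, and SOD2, a mitochondrial superoxide dismutase, at 34.5 against 20.7. PTGS2, the inducible prostaglandin synthase, read 10.7 against 3.04 CPM but rested on 90 UMIs in 33 members. TNIP1, a partner of TNFAIP3, read 69.6 against 43.5 CPM.

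The chemokine levels also ran high in cells over the macrophage limit, at 302 CPM for CXCL2, 636 for GRO1, 2657 for CXCL5, 1122 for CXCL8 and 574 for NFKBIA. IL6 and CSF1 were lower there than in members, at 55.5 and 184 CPM. Free RNA read 94.1 CPM of CXCL2, 240 of GRO1 and 132 of NFKBIA, above the other blood cells. For CXCL5, IL6 and CSF1 free RNA read 1322, 49.7 and 184 CPM, below the other blood cells. The part of free RNA in the CXCL2, GRO1 and NFKBIA counts of the other blood cells was not tested. When only cells with 0 UMIs of the 3 macrophage genes were used, 35 genes were higher and 69 lower.

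IL6 and CXCL2 were carried by few cells. The top 10% of members held 74.6% of the members' IL6 UMIs and 85.2% of their CXCL2 UMIs, and the middle member had 0 of either. The like shares within the other blood cells were 78.5% and 92.3%, so this concentration was not greater in members. At least 10 IL6 UMIs were found in 49 members (16.1%, interval 12.2 to 20.7) and in 111 other cells (4.07%, 3.36 to 4.88). CXCL5 was broader, with 34.8% of UMIs in the top 10% (36.3% in the other cells) and a median of 21.8 UMIs per 10000 in members against 10.2 in the others. CSF1 resembled CXCL5, with 29.6% in the top 10% and medians of 4.42 and 1.87. The higher summed level of IL6 and CXCL2 was thus that of a minority of members, whereas 79.6% of members lay above the other cells' median for CSF1 and 76.6% for CXCL5.

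Receptors and other signalling genes followed. IL1RL1, the receptor for interleukin 33, read 488 CPM in members and 258 in the others (1.89-fold), and IL6ST, the signal-transducing chain of the IL6 receptor family, 65.0 and 42.1 (1.55-fold). IL6ST was past 1.5-fold in 7 of 14 alternative settings and IL1RL1 in all 14. They were 2 of the 4 testable chemokine and cytokine receptors, and none of the 4 was past 1.5-fold lower. The receptor of CXCL12 was scarce in both groups: CXCR4 had 7 UMIs in members (0.83 CPM, against 0.91 in the others and 159 in the cells over the macrophage limit), and the scavenging receptor ACKR3 read 16.4 and 17.1 CPM. CCR2, the receptor of CCL2, had 0 UMIs in members and in the other blood cells. PLAUR, the urokinase receptor, read 146 against 83.4 CPM (1.75-fold), and was past 1.5-fold in 12 of 14 settings.

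SST, which encodes the peptide hormone somatostatin, read 409 CPM in members and 159 in the others, a ratio of 2.56 (2.47 to 2.66), with 73.1% of the members' UMIs in their top 10%. MEOX1, a homeobox transcription factor, read 97.9 against 34.7 CPM (2.82-fold). S100A2, a calcium-binding protein, read 882 against 501 CPM, the metal-binding MT2A 570 against 331, and CEBPD, a transcription factor of the acute phase response, 370 against 218. IVNS1ABP read 176 against 104 CPM, PCOLCE2, an enhancer of procollagen processing, 169 against 103, and the potassium channel gene KCNK12 123 against 76.7. The SST log2 ratio was 1.36, and 1.99 when only the top 5% were taken; without CCL2 in the score that of CEBPD was 0.34, short of 1.5-fold (0.76 with it). The bone matrix phosphoprotein gene SPP1 read 120 against 79.2 CPM, and with CSF1 it was 1 of 2 genes past 1.5-fold higher among 4 testable marrow reticular cell genes. SPP1 also read 2505 CPM in the cells over the macrophage limit and 308 in free RNA, was detected in 23.0% of members and 21.1% of the others at 4000 UMIs, and was past 1.5-fold in 9 of 14 alternative settings. The part of free RNA in its ratio was not tested. LEPR, the defining receptor of marrow reticular stroma, and ANGPT1 had 0 UMIs in members. In the other blood cells 2 genes of the marrow reticular list had 0 UMIs as well.

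The activin system was mixed. FST, the activin-binding protein, read 109 CPM in members against 242, a ratio of 0.45 (0.42 to 0.48), while INHBA was high by choice. Among cells low in cell cycle genes the log2 ratio of FST was -0.57, short of 1.5-fold, against -1.14 over all cells. FSTL3, another activin binder, read 47.7 against 65.4 CPM and FSTL1 560 against 531. Of 3 testable genes of activin, inhibin and their antagonists other than INHBA, 0 were past 1.5-fold higher and 1 was lower. Of 9 testable TGF-beta and SMAD target genes, LTBP3, a TGF-beta binding protein, read higher at 64.5 against 40.1 CPM, and 3, CCN2, TAGLN and THBS1, read lower. For CA4, a single related gene of the carbonic anhydrase and acid-base list reached 50 CPM and it was not past 1.5-fold. CA2 read 10.6 against 7.87 CPM.

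Contractile genes were lower as a group. Of 12 testable members of that list, 6 were past 1.5-fold lower and 0 higher, and of 15 genes of at least 10 CPM none had a ratio above 1, with a median log2 ratio of -0.77. ACTA2, smooth muscle actin and the usual sign of a myofibroblast, read 145 CPM in members and 362 in the others, a ratio of 0.40 (0.38 to 0.42). MYL9, a myosin light chain, read 86.5 against 198 CPM, the tropomyosin gene TPM2 510 against 953 and TAGLN 54.4 against 96.7. TAGLN was past 1.5-fold in 12 of 14 alternative settings, and ACTA2, MYL9 and TPM2 in all 14. ACTG2 read 21.7 against 65.8 CPM, and CNN1, below 50 CPM in both, 12.3 against 46.2.

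Genes linked to the mechanosensitive coactivator YAP showed the same direction, with 4 of 6 testable genes past 1.5-fold lower and 0 higher. ANKRD1 had the smallest ratio of all genes tested, 0.11 (0.090 to 0.14), at 9.05 CPM in members and 79.2 in the others, and only 17 members had an ANKRD1 UMI. Its log2 ratio of -3.13 ranged from -5.93 for the top 5% to -1.97 for a score on thinned cells. CCN2, a matricellular protein, read 463 against 917 CPM, CCN1 293 against 490 and CRIM1, a membrane protein that binds growth factors of the BMP family, 65.2 against 146. For a score from CXCL12 and CCL2 alone, CCN2 and CCN1 fell short of 1.5-fold, with log2 ratios of -0.50 and -0.49.

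Matrix genes were uneven. THBS1, a matrix glycoprotein that can activate latent TGF-beta, read 193 CPM in members and 617 in the others, a ratio of 0.31 (0.30 to 0.33). PTN, a heparin-binding growth factor, read 116 against 413 CPM (ratio 0.28, 0.26 to 0.30). COL12A1, a collagen that bridges fibrils, read 36.1 against 102 CPM, the collagen-crosslinking enzymes LOXL2 and LOX 69.6 against 175 and 184 against 298, and TIMP3, an inhibitor of matrix proteases, 56.5 against 122. LOX was past 1.5-fold in 10 of 14 settings; the log2 ratio of PTN was -2.53 for the top 5% (-1.83 here) and that of TIMP3 -1.75 without CCL2 in the score (-1.12 here). The serine protease gene HTRA3 read 99.8 against 196 CPM. Of 10 testable collagens 2 were lower, COL1A1 and COL12A1, and the list's median log2 ratio was -0.16. COL3A1, for instance, read 1002 against 1210 CPM.

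The integrated stress response is the program that follows amino acid shortage or unfolded proteins. Of its 8 testable genes 3 were past 1.5-fold lower and 0 higher: the transcription factors ATF4 (397 against 619 CPM) and DDIT3 (57.3 against 102) and the enzyme gene PCK2 (50.6 against 84.5). ATF4 was past 1.5-fold in 8, PCK2 in 10 and DDIT3 in all of 14 alternative settings. None of the 13 genes of that list at 10 CPM had a ratio above 1, and their median log2 ratio was -0.56. GADD45A, a stress and growth arrest gene, read 71.8 against 155 CPM.

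Cell cycle genes differed by phase. Of 21 testable G2 and M phase genes 5 were lower, AURKA, CKS2, KIF23, TOP2A and UBE2C, and the list's median log2 ratio was -0.45. All 5 fell short of 1.5-fold when CCL2 was left out of the score, with log2 ratios of -0.19, -0.30, -0.16, -0.11 and -0.15 in that order. S phase genes had 0 of 13 past 1.5-fold, and a median of 0.23. Together S and G2/M genes took a median of 0.440% of UMIs in members and 0.521% in the other cells, and 60.9% of members against 48.8% of the others lay below the library's median. Restricted to those cells, 185 members and 1331 others, 44 genes read higher and 66 lower. These cells were kept by the cycle genes themselves, so those lists are not read there. The contractile list stood at -0.68, the stress response list at -0.54 and the inflammatory list at 0.74. The chemokine list was 0.58 over all cells and -0.02 in the low-cycling ones, each the median of only 5 genes. In the low-cycling cells 2 of its 4 testable genes were past 1.5-fold higher. The log2 ratio of CXCL2 there was 0.77 (1.66 over all cells) and that of CXCL5 0.83 (1.07).

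**Figure D3:**
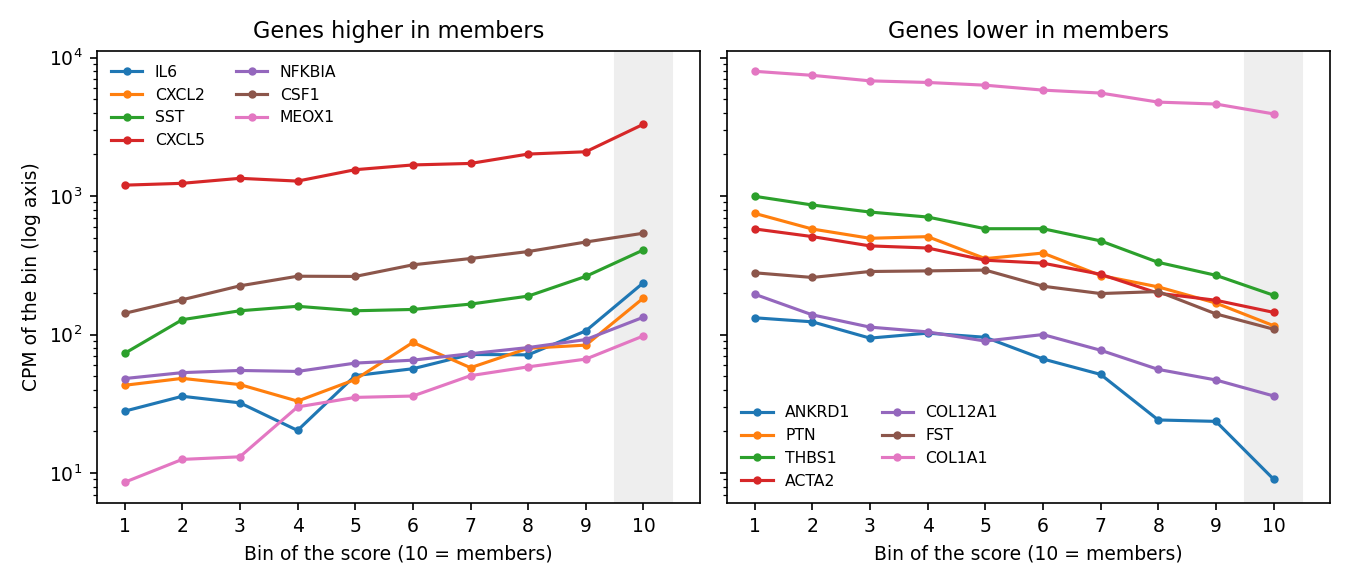
CPM (y axis, log scale) of selected genes in 10 equal bins of blood cells ordered by score (x axis, bin 10 holding the 304 members). CXCL5 goes from 1200 to 3305 CPM and THBS1 from 997 to 193 CPM, with the members at the end of each run.

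For most genes plotted by score, the difference was already present below the limit. Over 10 equal bins of cells ordered by score, CXCL5 read 1200 CPM in the lowest bin, 2090 in the ninth and 3305 in the members. COL1A1 went from 7964 through 4621 to 3923 CPM, THBS1 from 997 through 268 to 193, and ACTA2 from 580 through 177 to 145. ANKRD1 was 132 in the lowest bin and 23.6 in the ninth, and MEOX1 8.6 and 66.6. IL6 read 28.0 CPM in the lowest bin, 106 in the ninth and 237 in the members. FST stayed between 259 and 292 CPM over the lowest 5 bins, and was 141 in the ninth and 109 in the members. Others differed mainly at the top: FABP5 stayed between 253 and 321 CPM over the lower 9 bins and read 178 in members, and CEBPD was 227 in the eighth bin, 269 in the ninth and 370 in the members.

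Members differed among themselves by CA4. The 201 members with a CA4 UMI read 235 CPM of CXCL2 against 55.5 in the 103 without one, a ratio of 4.23 (3.53 to 5.09). IL6 read 298 against 84.1 CPM (3.54-fold), SST 512 against 149 (3.45-fold) and CXCL5 3772 against 2124 (1.78-fold). Most of the members' UMIs of CXCL2, IL6 and SST came from few cells. The interval for CXCL2 treats each UMI as independent and does not cover this concentration. COL1A1 was higher in members with CA4 as well, at 4412 against 2685 CPM. In the other direction, MEOX1 read 72.5 CPM with CA4 and 162 without (ratio 0.45, 0.39 to 0.51), FABP5, a fatty acid carrier, 135 against 286, and CSF1 483 against 684. INHBA also read lower with CA4, at 339 against 493 CPM. Members without CA4 had to reach the limit through the other 3 genes, and were shallower, with a median of 20301 UMIs against 23567. Of members with CA4, 23.4% were in the blood cells' top decile for SST, SFRP4 and ASPN, against 5.83% of those without. For the top decile for MEOX1 and ALDH1A1 the shares were 11.9% and 37.9%. The part of depth and of these groups in the differences was not tested.

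**Figure D4:**
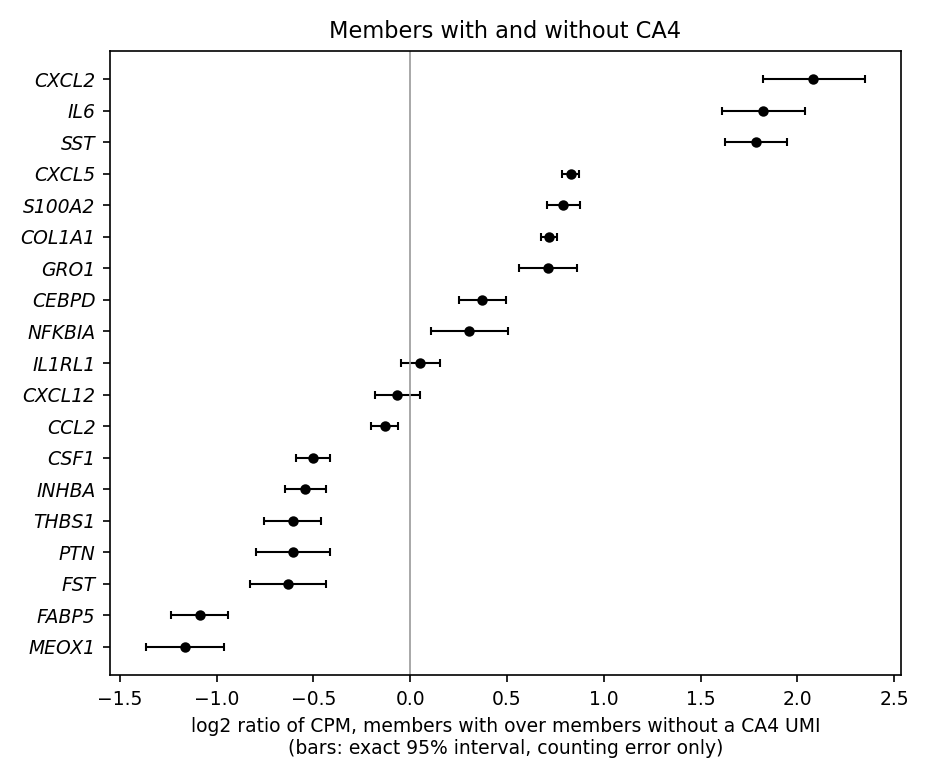
log2 ratio of CPM (x axis) of named genes (y axis) in the 201 members with a CA4 UMI over the 103 without, with bars for the exact 95% interval from counting error. CXCL2, IL6 and SST lie farthest to the right, toward members with CA4, and MEOX1 and FABP5 farthest to the left.

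Division by the leading gene did not run the same way for all genes. The 176 members led by CCL2 read 336 CPM of IL6 and 360 of GRO1, and the 70 led by INHBA 86.1 and 121. IL6 and GRO1 read 87.1 and 191 CPM where CXCL12 led, and 256 and 231 where CA4 led. CXCL5 read 3551 CPM where CCL2 led, 4073 where CXCL12 led, 1936 where INHBA led and 4204 where CA4 led. CSF1 read 551, 406, 658 and 351 CPM in the same order, and MEOX1 103, 85.4, 118 and 21.6. The 21 members led by CA4 read 1014 CPM of SST.

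The members overlapped 3 other groups of blood cells, each also 304 cells and taken from the same cells by other genes. Of the members, 63 (20.7%) were also in the top decile for MEOX1 and ALDH1A1, and 53 (17.4%) in that for SST, SFRP4 and ASPN, while the corresponding shares of the other blood cells were 8.83% and 9.20%. Only 6 members (1.97%) were in the top decile for ANKRD1, NES and BASP1, against 10.9% of the other cells. The MEOX1 and ALDH1A1 group read 632 CPM of CSF1 and 1071 of CXCL5. The SST group was nearer the members in CXCL5 (2968 CPM) and IL6 (174 CPM), but read 7485 CPM of COL1A1. These values include the members shared with each group. With the members left out, CXCL5 read 824 CPM in the MEOX1 and ALDH1A1 group and 2663 in the SST group. IL6 then read 153 CPM in the SST group. THBS1 was at 1390 CPM in the ANKRD1 group. With that group left out of members and others alike, a comparison chosen after the data were seen, 36 genes read higher and 60 lower.

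When the blood cells were clustered without the 4 scored genes, the members did not form a cluster of their own. Of 6 clusters, cluster 5, led by CXCL2, GRO1, CXCL5 and IL6, held 102 members among 405 cells (25.2%, 21.0 to 29.7). Cluster 2, led by SST, held 96 of 760 (12.6%) and cluster 1, led by MEOX1 and ALDH1A1, 69 of 487 (14.2%). Cluster 4, led by LRRN4CL and TIMP3, held 20 of 360 (5.56%). Cluster 3, led by TOP2A, held 12 of 506, and cluster 0, led by ANKRD1 and FST, 5 of 515 (0.971%). Members thus lay mostly in 3 clusters and seldom in the ANKRD1 and TOP2A clusters.

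The same score was applied to the other libraries, where the top 10% were 609 of 6088 adipose cells and 830 of 8297 bone marrow cells. There CCL2 read 7.00-fold and 13.2-fold higher in the high-scoring cells, INHBA 3.69-fold and 4.28-fold, CXCL12 1.88-fold and 2.35-fold, and CA4 1.62-fold and 4.36-fold. In adipose tissue 18 genes read at least 1.5-fold higher (0.592% of 3043 tested) and 19 lower (0.624%), and in bone marrow 22 higher (0.739% of 2978) and 9 lower (0.302%). At 2-fold the counts were 2 higher (0.0657%) and 3 lower (0.0986%) in adipose tissue, and 3 higher (0.101%) and 0 lower in bone marrow. Both libraries therefore had fewer genes past 1.5-fold than blood.

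Of the 40 genes higher in blood, 7 were also higher in adipose tissue (17.5% of the blood list, 38.9% of the adipose list): CSF1, ELK3, EPSTI1, IL1RL1, MEOX1, NET1 and PLAUR. In bone marrow 8 were (20% of the blood list, 36.4% of the marrow list), among them CEBPD, CSF1, CXCL5, MARCKSL1, MEOX1 and S100A2. CSF1 and MEOX1 were the 2 genes on all 3 lists. CSF1 read 540 against 291 CPM in blood, with a ratio of 1.90 (1.87 to 1.93) in adipose tissue and 1.83 (1.78 to 1.87) in bone marrow. Of the 65 lower genes, 14 were lower in adipose tissue (21.5% of the blood list, 73.7% of the adipose list), including ACTA2, MYL9, TPM2, LOXL2, COL12A1 and FST. Only 3, COL1A1, DDIT3 and PCK2, were lower in bone marrow (4.62% and 33.3%). Not all blood genes reached 50 CPM in the other libraries: of those that did, 25 of 27 higher genes and 42 of 44 lower genes lay on the same side of 1 in adipose tissue, and 25 of 27 and 41 of 49 in bone marrow. Median log2 ratios of the lower genes were -0.41 in adipose tissue and -0.15 in bone marrow. Those of the higher genes were 0.43 and 0.32, and those over all genes tested in each library 0.02 and 0.04.

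IL6 separated the libraries. In adipose tissue the other cells read 5.94 CPM and the high-scoring cells 8.91, a ratio of 1.501 (1.17 to 1.91). In bone marrow the other cells read 295 CPM and the high-scoring cells 427, a ratio of 1.45 (1.396 to 1.498). CXCL2 read 4.57 against 4.79 CPM in adipose tissue and 26.6 against 12.4 in bone marrow. SST, at 159 CPM in the other blood cells, was at 2.42 CPM in the other adipose cells and 0.25 in the other bone marrow cells. THBS1 and ACTA2, both far lower in blood members, had ratios of 1.24 and 0.97 in bone marrow. Each library is also a different culture and depth, with a median of 14391 UMIs per adipose cell and 9096 per bone marrow cell. The part of these in the differences was not tested.

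**Figure D5:**
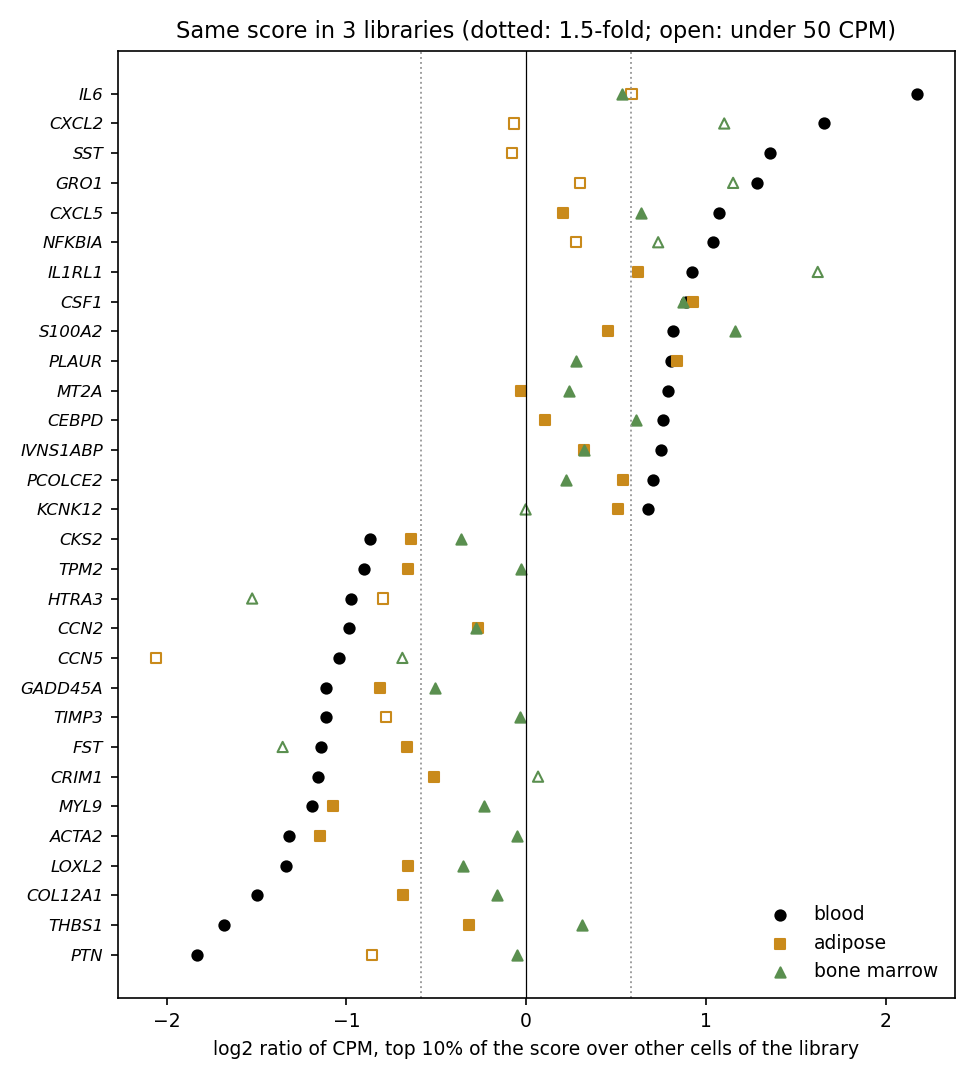
log2 ratio of CPM, top 10% of the score over the other cells of the same library (x axis), for the 15 largest and 15 smallest ratios in blood (y axis) in blood, adipose tissue and bone marrow. Dotted lines mark 1.5-fold and open symbols genes under 50 CPM in that library, and SST, with 0 UMIs in the high-scoring marrow cells, has no marrow point. CSF1 lies to the right of the line in all 3, and ACTA2 and MYL9 lie to the left of it in blood and adipose tissue.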

How the data were processed

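The authors deposited raw counts of UMIs for each gene in each barcode, made with Cell Ranger (version 6.1.1 per the submitters' processing notes, 4 per the file headers) on genome build ARS-UCD1.2, which the same notes name. The libraries used 10x 3' chemistry version 3.1, per the labels' protocols. The matrices were unfiltered, so barcodes were kept at 1/10 of the 99th percentile of the 3000 largest UMI totals, or 7489 UMIs in blood. No doublet caller was run, and an alternative left out cells over 2 times the median UMI total.

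UMIs were summed over cells of each group and given as CPM, with exact 95% intervals of the ratio that assume each UMI is independent. No test was possible with a single library for each tissue. A gene was called higher or lower at 1.5-fold or more and at least 50 CPM in the higher group. For gene lists, medians used genes of at least 10 CPM. Ratios involving 0 UMIs used a floor of 3 counts per group and are not printed. Shares in thinned cells used 4000 UMIs. Clustering used 2000 variable genes, 30 principal components, 15 neighbours and Leiden resolution 0.5 (scanpy 1.11.5). TMM factors came from edgeR 4.0.16. The ratio calculation was run on simulated counts drawn independently for each gene. That simulation left out the uneven spread of UMIs over cells, so it does not cover that source of error.

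Named genes are the 15 largest and 15 smallest ratios at 100 CPM or more with a symbol of their own, mitochondrial and ribosomal protein genes left out, the 4 scored genes, the markers of other cell types and the list members past 1.5-fold. Genes under 50 CPM, and genes in the overlaps, were picked with their values in view. The members and the gene lists were chosen with earlier results of these data known. Alternatives covered the share of cells taken, the score, scaling, filters, cycling cells and depth. Genome coordinates are not used here.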

Additional observations from a re-analysis of the deposited data

How the results depend on the processing

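The main counts were 40 genes higher and 65 lower in blood, with 7 and 8 of the higher genes shared with adipose tissue and bone marrow. Taking the top 20% of cells gave 41 lower genes and 4 shared with bone marrow. Scoring cells thinned to 4000 UMIs, where ties gave 325 members, gave 25 higher, 39 lower and 4 shared with bone marrow. Without INHBA in the score, 3 were shared with adipose tissue and 5 with bone marrow, and without CCL2 3 with bone marrow. Counting genes from 10 CPM gave 134 higher, 175 lower, and 28 and 30 shared. With no filter other than 3 UMIs per group the counts were 862, 604, 174 and 191. At 2-fold they were 10, 14, 0 and 0. These follow from fewer or more genes passing in the filter and fold settings, and for the others the cause was not tested. All other alternatives run stayed within 1.5 times of these counts. Leaving out the ANKRD1, NES and BASP1 cells and scoring by CXCL12 and CCL2 alone (28 higher, 56 lower) were chosen after seeing the data. In low-cycling cells, the log2 ratios of TOP2A (0.0944), UBE2C (0.25) and KIF23 (0.0532) turned from lower to higher. Those cells were filtered on cycle genes that include these, and the cause of the change was not tested. Of 58 named genes under 14 settings (812 values), 3 values changed direction, and 33 genes stayed at least 1.5-fold apart in each setting. Both gene counts include the 4 scored genes, on which the members were chosen. Depth limits the genes under 50 CPM, such as PTGS2 and the receptors, which rest on few UMIs. No paired analysis was possible because each tissue had 1 library and the compared cells came from the same library.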
